A study of Mus musculus with 3 samples.

Results

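The potassium channel genes and the hyperpolarisation-activated cation (HCN) channel genes were examined in hippocampus of young wild-type mice. Members were taken by symbol: every gene whose symbol begins with Kcn, apart from the imprinted antisense transcript Kcnq1ot1, and the 4 Hcn genes. This gave 101 of the 39377 genes in the table, 98 of them protein coding and 3 noncoding RNAs, spread over 20 chromosomes. They were sorted by symbol into 13 subfamilies. The samples formed 1 group, C57BL/6 mice of genotype WT at postnatal day 14, with no treatment named. Total RNA of whole hippocampus, which holds mixed cell types, was sequenced as read pairs of 150 bases, and the 3 libraries are numbered as in their titles. Separate animals are not named for them, so a p-value here covers just the variation among these 3 samples, and that variation may be technical. As no second group exists, all comparisons are between genes within a library.

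Potassium channels let potassium leave the cell and so set the resting potential, end the action potential and limit repetitive firing. Each channel is built around a pore made by several pore-forming subunits, and auxiliary subunits in the membrane or the cytoplasm change its gating, its surface level and its place in the neuron. Voltage-gated families open on depolarisation, inward rectifiers and tandem-pore channels hold the resting potential, and calcium-gated channels shape the afterpotential. HCN channels carry a mixed inward current that opens on hyperpolarisation and sets resting properties of pyramidal cell dendrites.

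Levels are FPKM, mapped fragments scaled to transcript length and library size, as the authors deposited them, so they are already per transcript length. Where 3 values follow each other they are for libraries 1, 2 and 3 in that order, and ± gives the SD of the 3 libraries (n = 3), while standard errors are marked SE. The low values moved in steps of whole fragments, and the fitted step sizes correspond to about 3700000, 4140000 and 6020000 fragments. On a transcript of 2 kb, 3 fragments would then read 0.405, 0.362 and 0.249 FPKM, so values of that size carry little precision, and these floors cover counting error only. All 6 markers of CA pyramidal and other glutamatergic neurons and all 4 dentate granule markers had a mean of at least 1 FPKM, led by Slc17a7 at 452 ± 38.6 FPKM and Calb1 at 44.8 ± 0.897 FPKM. All 4 markers of neighbouring neocortex and all 4 of thalamus and habenula also reached that mean, with highest means of 16.0 FPKM for Fezf2 and 12.5 FPKM for Prkcd. In bulk tissue, fewer cells of a type and less RNA per cell cannot be told apart.

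The summed level of the family was 916, 938 and 942 FPKM. As a share of all FPKM in the library, whose totals were 743038, 820068 and 637844, it was 0.123%, 0.114% and 0.148%, lowest in library 2 and highest in library 3. Of the 101 members, 93 were above 0 in at least 1 library and 72 reached a mean of 1 FPKM. Only 4 had a mean of at least 50 FPKM, 20 lay between 10 and 50, 18 between 5 and 10, and 30 between 1 and 5. A further 21 were above 0 with a mean under 1, and 8 were listed at 0 in every library: Kcna7, Kcna10, Kcnv2, Kcnj1, Kcnk7, Kcnk15, Kcnk18 and Kcnmb3. The 10 members with the highest means held 49.2% ± 1.86 of the summed level. They included the auxiliary subunits Kcnab2, Kcnip2, Kcnmb4 and Kcnip3 and the pore-forming Kcnk1, Kcnj10, Kcnn2, Hcn2 and Kcnh3. Among members at a mean of at least 1 FPKM the median was 6.84, 6.55 and 6.26 FPKM, beside 10.5, 10.3 and 10.2 FPKM over all 13337 genes that passed the same filter.

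**Figure D1:**
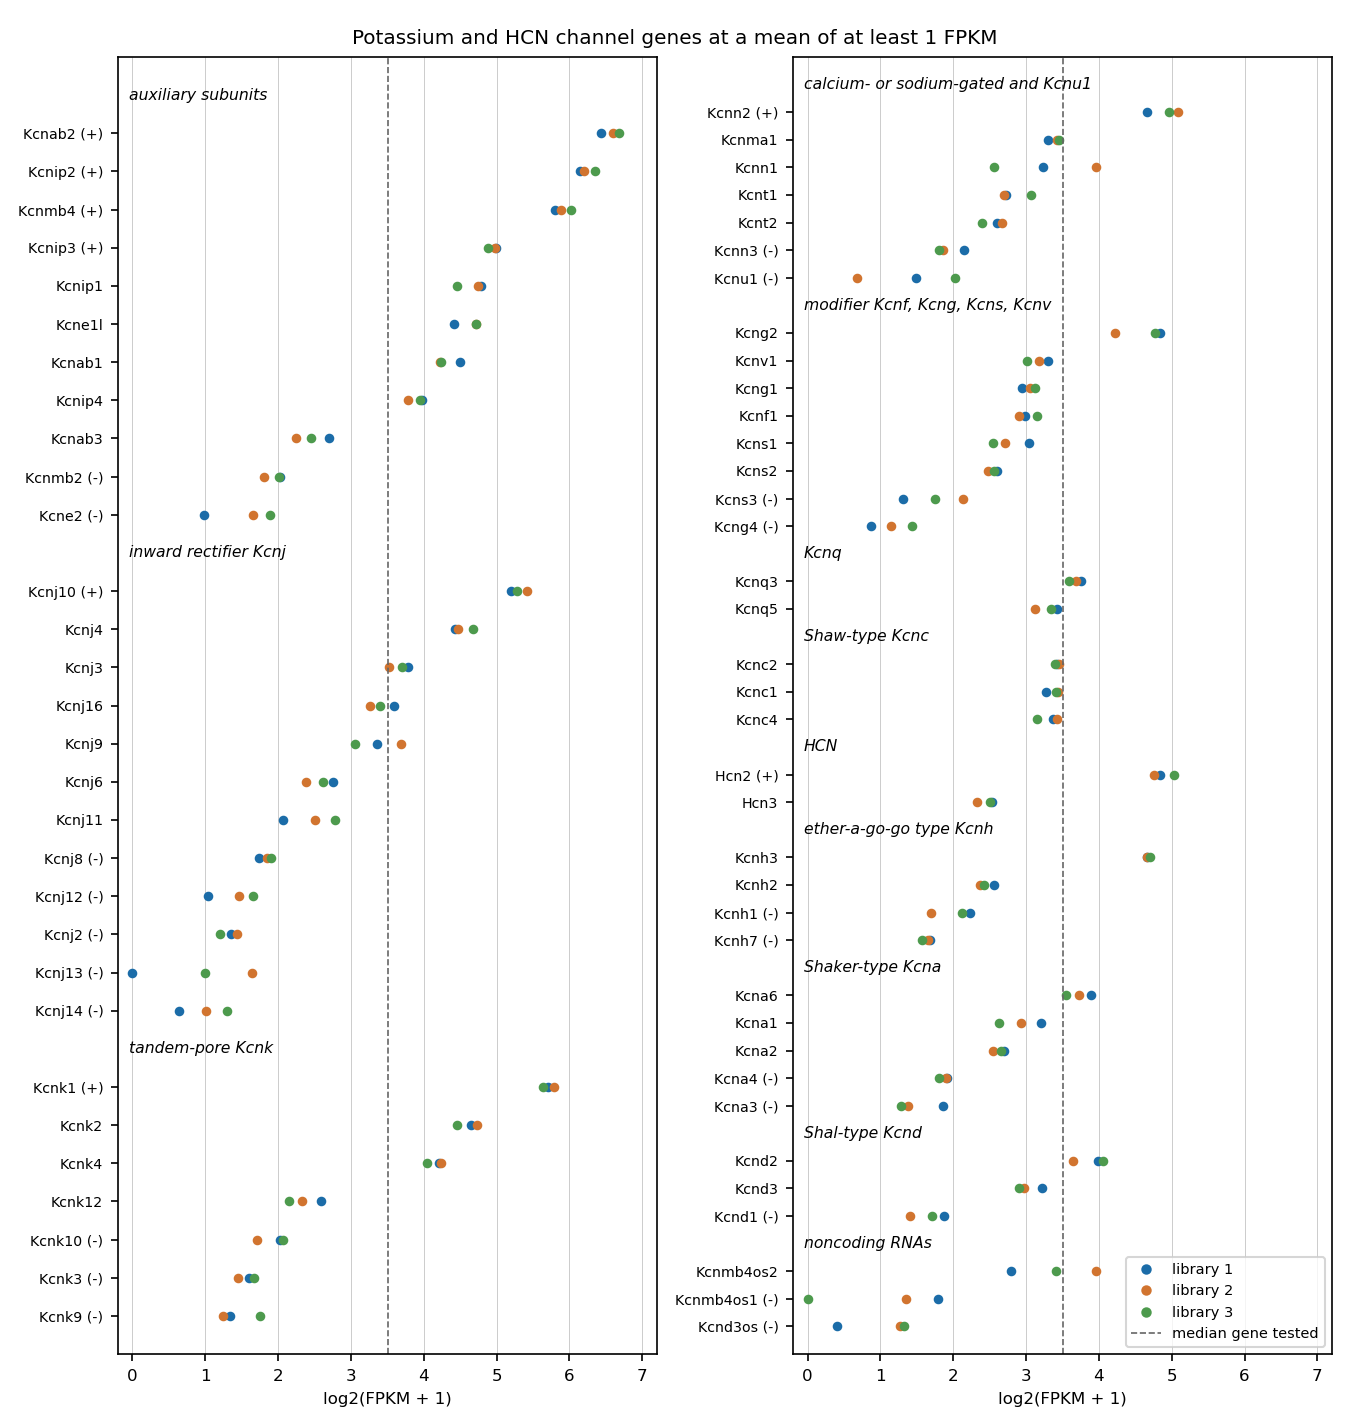
Level of the members described here that had a mean of at least 1 FPKM, as log2(FPKM + 1) on the horizontal axis, with 1 point per library and genes grouped by subfamily. The dashed line is the median gene tested, (+) marks members called higher than that median by more than 2-fold and (-) members called lower, and the auxiliary subunits Kcnab2, Kcnip2 and Kcnmb4 lie farthest to the right.

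Each gene was compared with the median of all genes tested in the same library, on the log2(FPKM + 1) scale. A gene was called where it differed from the median by more than 2-fold in limma's treat test at a Benjamini-Hochberg adjusted p under 0.05 over all 13337 genes. Of the 72 members tested, 9 were called higher, which is 12.5%, while 26% of all genes tested were called higher. Another 23 members were called lower, 31.9% of those tested, beside 22.3% of all genes, and 40 were not called. The 29 members under a mean of 1 FPKM were not tested. The median difference to the library median was -0.54 log2 units over the members and -0.01 over all genes. Both the higher and the lower calls depend on which genes the reference median is taken over. With every gene above 0 included, the median gene itself was lower, and 21 of 93 members (22.6%) were called higher and 22 (23.7%) lower, beside 31.3% and 31.7% of all genes. The share of members called lower was then below that of all genes instead of above it, and 1 of the 23 was among those called lower. Against the upper quartile in place of the median, 2 members (2.78%) were called higher and 47 (65.3%) lower, beside 11.1% and 51.7% of all genes.

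Auxiliary subunits made up the largest part of the summed level, 37.5% ± 1.10 over 17 genes. The inward rectifiers (Kcnj, 15 genes) followed at 11.7% ± 0.285 and the tandem-pore channels (Kcnk, 14 genes) at 11.2% ± 0.690, 2 shares that overlap between libraries. The calcium- or sodium-gated group (Kcnma1, Kcnn, Kcnt and the related Kcnu1, 8 genes) held 6.88% ± 0.697 and the modifier subunits (Kcnf, Kcng, Kcns and Kcnv, 10 genes) 6.51% ± 0.631, again overlapping. The ether-a-go-go type Kcnh family (8 genes) held 3.81% ± 0.185 and Kcna of the Shaker type (8 genes) 3.18% ± 0.459. Kcnd of the Shal type (3 genes) was at 2.51% ± 0.354 and the 3 noncoding RNAs at 1.34% ± 0.481.

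**Figure D2:**
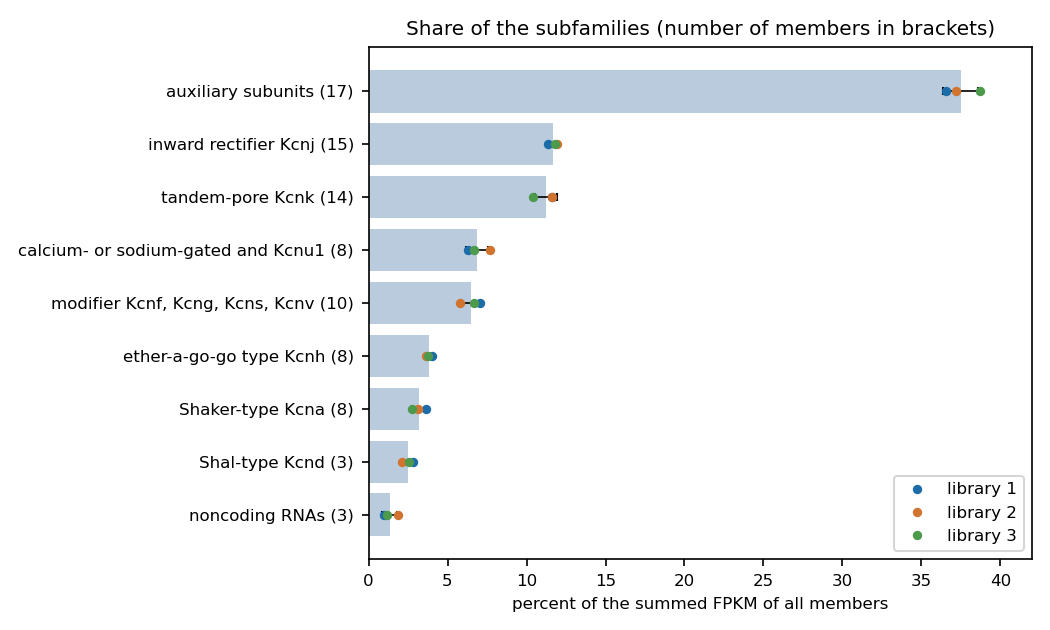
Percent of the summed FPKM of all members held by the subfamilies whose shares are given. Bars are means over 3 libraries, points are the libraries, error bars are SDs and brackets give the number of members, and the auxiliary subunits at 37.5% stand above every other group shown in each library.

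Among the voltage-gated pore-forming families, 5 of the 8 Kcna members were tested, and 2 were called lower and none higher, beside 22.3% and 26% of all genes. Kcna6 led with 13.9, 12.3 and 10.7 FPKM, followed by Kcna1 at 8.25, 6.59 and 5.16 FPKM and Kcna2 at 5.51, 4.85 and 5.28 FPKM. Kcna1 and Kcna2 form low-threshold channels of axons and nerve endings, and neither was called against the median. Kcna4, a fast-inactivating member, at 2.66 ± 0.161 FPKM and Kcna3 at 1.88 ± 0.646 FPKM were called lower, while Kcna5 stayed under the filter at 0.41, 1.46 and 0.77 FPKM. Kcnb2, a delayed rectifier subunit of the Shab type, lay under the filter at 0.81, 0.54 and 1.01 FPKM.

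The Kcnc family is known for fast-spiking inhibitory cells. Kcnc2 at 9.70 ± 0.206, Kcnc1 at 9.38 ± 0.623 and Kcnc4 at 8.98 ± 0.986 FPKM lay close together, overlapped between libraries and were not called. The Kcnd genes form the A-type current of dendrites. Kcnd2 read 14.9, 11.5 and 15.6 FPKM and Kcnd3 8.31, 6.81 and 6.48 FPKM, so that every library of Kcnd2 was above every library of Kcnd3. The X-linked Kcnd1 at 2.65, 1.64 and 2.26 FPKM was called lower.

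The modifier subunits do not form channels on their own but join Kcnb subunits. Kcng2 on chromosome 18 was the highest at 27.5, 17.7 and 26.3 FPKM, with library 2 below the other libraries. Its mean of 23.8 FPKM stood beside 0.787 FPKM for Kcnb2. It was not called, at 1.11 log2 units above the median (SE 0.148, limma adjusted p = 0.447). Kcnv1 at 8.0 ± 0.876, Kcng1 at 7.23 ± 0.519 and Kcnf1 at 7.11 ± 0.701 FPKM had overlapping values. Kcns1 at 5.87 ± 1.23 and Kcns2 at 4.83 ± 0.233 FPKM were not called either. Kcns3 and Kcng4 were called lower, at 2.41 ± 0.961 and 1.25 ± 0.436 FPKM. Kcng3 was listed at 0, 0.23 and 0.16 FPKM.

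In the Kcnh family 1 gene stood far above the rest. Kcnh3, a voltage-gated channel of forebrain neurons, read 24.4, 24.3 and 25.1 FPKM, and its CV of 1.69% was the lowest among members at a mean of at least 1 FPKM. It lay 1.17 log2 units above the median (SE 0.0858) and was not called (limma adjusted p = 0.0980). With a pseudocount of 0.1 in place of 1 it was called (adjusted p = 0.0473). The next were Kcnh2, at 4.91, 4.14 and 4.36 FPKM, and Kcnh1, at 3.71, 2.24 and 3.36 FPKM. Kcnh1 and Kcnh7 (2.10 ± 0.125 FPKM) were called lower, and the call of Kcnh1 was lost without library 2 (adjusted p = 0.0583). The other members, Kcnh4, Kcnh5, Kcnh6 and Kcnh8, had means between 0.140 and 0.527 FPKM.

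The Kcnq genes encode the subunits of the M current, a slow potassium current that muscarinic receptors close. Kcnq3 read 12.5, 11.9 and 11.03 FPKM and Kcnq5 9.74, 7.71 and 9.12 FPKM, neither called. Kcnq1, a cardiac and epithelial member, lay under the filter at 0.29, 0.69 and 0.18 FPKM. It shares exon bases with Kcnq1ot1 on the opposite strand.

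Inward rectifiers pass potassium more easily into the cell than out of it. Kcnj10, the main potassium channel of astrocytes and also found in oligodendrocytes, was the highest at 35.7, 41.7 and 37.7 FPKM and was called higher by 1.79 log2 units (SE 0.0952, limma adjusted p = 0.000827). The call of Kcnj10 was lost with a filter at 5 FPKM (1.01 log2 units) and against the upper quartile (0.43 log2 units). The 5 astrocyte markers summed to 650, 718 and 739 FPKM but did not move together: Aqp4, Gfap and Slc1a3 were lowest in library 1, as Kcnj10 was, while Aldh1l1 and Gjb6 were highest there. Kcnj16, which pairs with Kcnj10 in glia, read 11.1, 8.57 and 9.53 FPKM and was highest in library 1. Kcnj4, a strongly rectifying neuronal channel, followed Kcnj10 at 20.5, 21.1 and 24.4 FPKM and was not called.

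The G protein-gated rectifiers open when inhibitory receptors release G protein βγ subunits. Kcnj3 read 12.8, 10.5 and 12.1 FPKM, Kcnj9 9.26, 11.8 and 7.31 FPKM and Kcnj6 5.75, 4.21 and 5.15 FPKM. Every library of Kcnj6 was below every library of the other two. The fourth subunit of this type, Kcnj5, known from the heart, was under the filter at 0.56, 0.21 and 0.15 FPKM. The pores of ATP-sensitive channels were Kcnj11, at 3.17, 4.70 and 5.90 FPKM, and Kcnj8, a pericyte and smooth muscle marker, at 2.33, 2.60 and 2.74 FPKM. Kcnj8 was called lower, and so were Kcnj12 (1.65 ± 0.547 FPKM), Kcnj2 (1.51 ± 0.207 FPKM), Kcnj14 (1.00 ± 0.450 FPKM) and Kcnj13. Kcnj14 was the member just above the filter, with 0.55, 1.01 and 1.45 FPKM, and the tandem-pore gene Kcnk13 the one just below it, with 0.86, 1.10 and 0.72 FPKM. Kcnj15 was above 0 in library 3 alone, at 0.22 FPKM.

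Kcnj10 and Kcnj9 are neighbours on chromosome 1, 11.9 kb apart and read away from each other, so the upstream bases of both are shown to set the glial gene beside the neuronal one. The sequences are the 150 bases before each start in RefSeq on GRCm38.p6, 5′ to 3′ on the strand of the gene, with every CG in capitals. Neither overlaps an exon of its own gene, and exons of other genes were not checked.
Kcnj10: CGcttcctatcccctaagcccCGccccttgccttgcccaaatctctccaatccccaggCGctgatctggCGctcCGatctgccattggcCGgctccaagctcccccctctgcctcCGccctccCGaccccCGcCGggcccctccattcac
Kcnj9: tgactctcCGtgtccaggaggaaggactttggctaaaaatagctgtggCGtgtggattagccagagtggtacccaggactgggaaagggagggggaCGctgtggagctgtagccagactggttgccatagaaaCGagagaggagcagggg
The stretch of Kcnj10 lies at chr1:172341060-172341209 on the plus strand and holds 10 CG, and that of Kcnj9 at chr1:172329323-172329472 on the minus strand and holds 4. Over the 250 bases before the start, the observed number of CG over the number that base composition gives was 0.827 for Kcnj10 and 0.303 for Kcnj9. Upstream sequence was matched for 73 of the 101 members. The median ratio was 0.437 for the 18 members at a mean of at least 10 FPKM, 0.515 for the 31 between 1 and 10 FPKM and 0.350 for the 24 under 1 FPKM. Over all genes with a sequence the same bands had 0.745, 0.676 and 0.234. The ratios of the members ran from 0 to 1.02.

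Tandem-pore channels carry background potassium current. Kcnk1, a weakly conducting member also made by astrocytes, read 51.4, 54.1 and 49.0 FPKM, the highest of all pore-forming genes, and was called higher by 2.21 log2 units (SE 0.0875, limma adjusted p = 0.000135). This call was lost against the upper quartile. The mechanically and lipid-gated Kcnk2 and Kcnk4 followed at 24.1, 25.5 and 21.0 FPKM and at 17.5, 17.8 and 15.5 FPKM, neither called. In all 3 genes library 2 was highest and library 3 lowest. Kcnk12 at 4.15 ± 0.808 FPKM was not called, and Kcnk10 (2.84 ± 0.494 FPKM), Kcnk3 (1.98 ± 0.221 FPKM) and Kcnk9 (1.76 ± 0.539 FPKM) were called lower. Kcnk6 at 0.747 ± 0.222 FPKM lay under the filter, as did Kcnk13. Kcnk5 read 0.68, 0.08 and 0 FPKM and Kcnk16 0, 0 and 0.09 FPKM. Kcnk4 shares 587 exon bases with Catsperz on the same strand, so reads of the 2 genes could be exchanged; Catsperz read 2.52, 2.23 and 2.29 FPKM.

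Of the channels gated by intracellular ions, Kcnn2, the small-conductance calcium-gated channel of hippocampal spines, was highest. It read 24.4, 33.0 and 30.3 FPKM and was called higher by 1.40 log2 units (SE 0.120, limma adjusted p = 0.0226). That call was lost without library 2 (adjusted p = 0.0978), without library 3 (adjusted p = 0.0946) and against the upper quartile. Kcnn1 of the same family was the most variable member at a mean of at least 5 FPKM, at 8.40, 14.6 and 4.92 FPKM. Its highest library was 2, as for Kcnn2, but its lowest was 3. Kcnn3 at 2.86 ± 0.515 FPKM was called lower, and Kcnn4, the form of blood and immune cells, lay under the filter at 0.16, 0.42 and 0.40 FPKM. Kcnma1, the pore of the large-conductance channel gated by voltage and calcium, read 8.90, 9.76 and 9.99 FPKM. The sodium-gated Kcnt1 and Kcnt2 had means of 6.16 ± 1.08 and 4.89 ± 0.578 FPKM. The sperm channel gene Kcnu1 was called lower and was uneven at 1.81, 0.60 and 3.06 FPKM.

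Among the HCN genes, Hcn2 read 27.6, 26.1 and 31.6 FPKM and was called higher by 1.37 log2 units (SE 0.102, limma adjusted p = 0.0173). Hcn3 lay below every library of Hcn2 at 4.81, 4.0 and 4.65 FPKM and was not called. Hcn4, the pacemaker form of the heart, was under the filter at 0.41, 0.65 and 0.80 FPKM. Without library 3 the call of Hcn2 was lost (adjusted p = 0.0827). It was also lost with a filter at 5 FPKM (0.58 log2 units) and against the upper quartile (0.0062 log2 units).

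The auxiliary subunits held the 3 highest members of the whole family. Kcnab2, a cytoplasmic β subunit of Kcna channels with an oxidoreductase fold, read 85.4, 96.1 and 102 FPKM. Kcnip2, a calcium-binding partner of Kcnd channels, read 70.1, 72.3 and 80.5 FPKM, and Kcnmb4, the neuronal β subunit of Kcnma1, 54.9, 58.2 and 64.2 FPKM. Values of these 3 genes did not overlap, and each was lowest in library 1 and highest in library 3. They were called higher by 3.07 (SE 0.10), 2.73 (SE 0.0960) and 2.4 log2 units (SE 0.0978), with limma adjusted p = 3.44e-05, 5.50e-05 and 0.000120. The fourth call was Kcnip3, also known as a calcium-regulated transcriptional repressor, at 30.8, 30.4 and 28.6 FPKM (1.45 log2 units, SE 0.0854, adjusted p = 0.00480). The call of Kcnip3 was lost with a filter at 5 FPKM (0.66 log2 units) and against the upper quartile (0.081 log2 units). Of all members called higher, Kcnab2 and Kcnip2 alone stayed so against the upper quartile, so that of Kcnmb4 was lost as well.

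The other auxiliary genes of each type were lower. Kcnip1 and Kcnip4 had means of 24.4 ± 3.01 and 14.0 ± 1.07 FPKM, so that all 4 Kcnip genes were above 10 FPKM in every library. Kcnab1 at 19.1 ± 2.27 FPKM and Kcnab3 at 4.56 ± 0.889 FPKM were not called. Of the large-conductance channel subunits, Kcnmb2, which gives inactivation, was called lower at 2.87 ± 0.316 FPKM, Kcnmb1 of smooth muscle had a mean of 0.140 FPKM, and Kcnmb3 was listed at 0. The single-span Kcne subunits were led by the X-linked Kcne1l at 20.3, 25.3 and 25.2 FPKM, not called. Kcne2 was called lower at 0.98, 2.16 and 2.71 FPKM, Kcne4 lay at 0.773 ± 0.0907 FPKM, Kcne3 was above 0 in library 2 alone (0.71 FPKM), and Kcne1 likewise (0.08 FPKM). Kcnrg, a soluble regulator of voltage-gated channels, read 0.18, 0.63 and 0.11 FPKM.

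The 3 noncoding RNAs lie opposite channel genes and were among the least steady members. Kcnmb4os2 read 5.93, 14.6 and 9.62 FPKM and shares 693 exon bases with Kcnmb4 on the opposite strand. Kcnmb4os1 read 2.47, 1.54 and 0 FPKM and shares 355. Kcnd3os read 0.32, 1.42 and 1.51 FPKM and shares 165 with Kcnd3. The last 2 were called lower, Kcnmb4os1 not with a pseudocount of 0.1 (adjusted p = 0.0570). Kcnmb4 was over 50 FPKM in every library, and whether the authors' counting used strand is not given in the sources used here, so these reads cannot be assigned to 1 strand. In all, 32 members share exon bases with another annotated gene, 29 of them at a mean of at least 1 FPKM.

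Related subunits were compared as 7 pairs inside each library, with the same test and adjusted over all genes; a pair was called where the difference exceeded 2-fold. Beside each call stands the percent of all genes called the same way against the same gene, since a low reference gene makes most genes higher. In 2 pairs 1 subunit was called above the other. Kcnmb4 was 6.16, 5.96 and 6.43 times its pore gene Kcnma1 (mean 6.18 ± 0.235), and Kcnma1 was lower by -2.51 log2 units (SE 0.116, adjusted p = 1.04e-05), as were 71.3% of all genes against Kcnmb4. Their longest transcripts have 12094 bases for Kcnma1 and 1367 for Kcnmb4, and how an FPKM of 2 such genes depends on the transcript model was not tested. Kcnj10 was 3.22, 4.87 and 3.95 times Kcnj16 (mean 4.01 ± 0.825), higher by 1.88 log2 units (SE 0.161, adjusted p = 0.000801), as were 26.2% of all genes. Both ratios were above 3 in every library, and that of Kcnmb4 to Kcnma1 varied less.

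In the other 5 pairs no difference beyond 2-fold was called. Kcnj3 was 2.35 ± 0.135 times Kcnj6 (1.08 log2 units, SE 0.166, adjusted p = 0.545; 40.3% of all genes). Kcnk1 was 2.20 ± 0.121 times Kcnk2 (1.10 log2 units, SE 0.132, adjusted p = 0.361), where 12.8% of all genes were called higher than Kcnk2. Kcnd2 was 1.96 ± 0.390 times Kcnd3 (0.86 log2 units, SE 0.156, adjusted p = 1; 32.2% of all genes). These 3 ratios were above 1 in all 3 libraries, and each pair was called against a null of no difference, with adjusted p from 2.37e-05 to 0.000673.

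The last 2 pairs changed order between libraries. Kcna1 was 1.5, 1.36 and 0.977 times Kcna2 (0.28 log2 units, SE 0.136, adjusted p = 1), and 40.7% of all genes were called higher than Kcna2. Kcnc2 was 1.12, 1.01 and 0.980 times Kcnc1, with Kcnc1 lower by -0.05 log2 units (SE 0.0928, adjusted p = 1) and 20.6% of all genes called lower than Kcnc2.

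**Figure D3:**
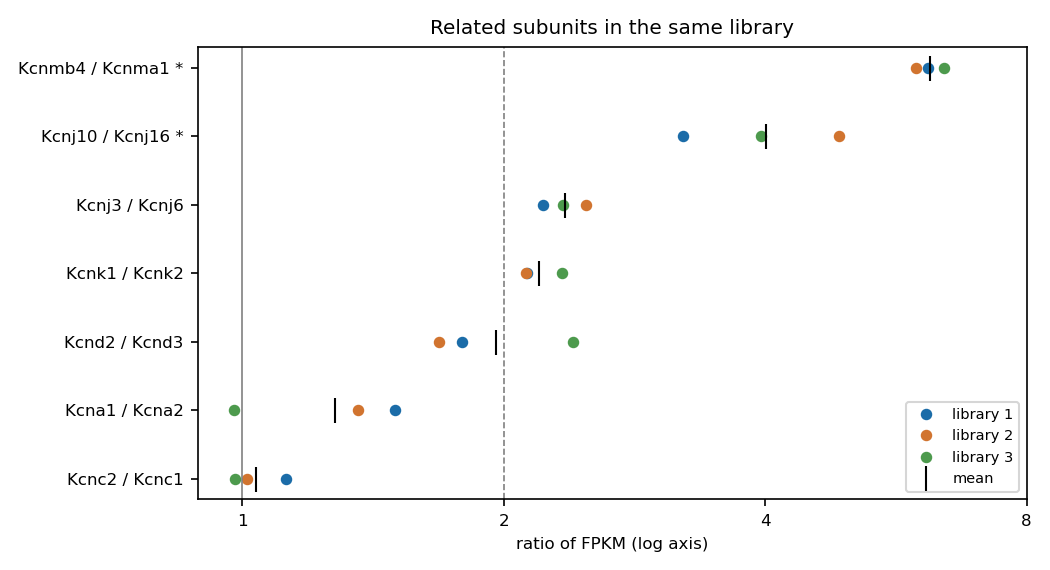
Ratio of the FPKM of 2 related subunits in the same library, on a log axis, with 1 point per library and a bar at the mean. Asterisks mark the 2 pairs called beyond 2-fold, the dashed line is a ratio of 2, and the Kcna1 to Kcna2 and Kcnc2 to Kcnc1 pairs lie on both sides of 1.

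Genes that bind, anchor or complete these channels but carry other symbols were taken from a list chosen with earlier results known. Of 33 such partners, 29 were tested, 16 were called higher (55.2%), 2 lower (6.90%) and 11 not, beside 26% and 22.3% of all genes, with a median difference of 1.63 log2 units to the library median beside -0.54 for the members. Calmodulin, the calcium sensor fixed to Kcnn and Kcnq channels, led through Calm2 at 2569, 2497 and 2302 FPKM and Calm3 at 945, 887 and 973 FPKM. Of the partners of Kcnd channels, Dpp6 read 57.8, 45.7 and 51.3 FPKM and was called higher, while Dpp10 at 11.5 ± 2.48 FPKM was not. Pex5l, which binds HCN channels and moves them to dendrites, read 41.8, 33.8 and 44.0 FPKM, above Hcn2 in each library, and was called higher. Both genes called lower encode the regulatory subunits of ATP-sensitive channels: Abcc8 at 3.64, 3.05 and 3.28 FPKM and Abcc9 at 1.18, 1.10 and 1.09 FPKM. Of the γ subunits of Kcnma1, Lrrc55 was at 5.93 ± 1.42 FPKM and not called, and Lrrc26 was under the filter. Lrrc38 was listed at 0, 0.23 and 0.08 FPKM and Lrrc52 at 0.30, 0 and 0 FPKM. Rest, a repressor of neuronal genes, lay just under the filter at 0.990 ± 0.135 FPKM.

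Variation between libraries was modest for most members. The median CV was 11.9% over the 72 members and 13.8% over all genes tested. Library 1 was the highest for 31 members, library 2 for 18 and library 3 for 23, which is 43.1%, 25% and 31.9%, beside 36.5%, 32.6% and 30.9% of all genes. The 5 most variable members at a mean of at least 5 FPKM were Kcnn1, Kcnmb4os2, Kcng2, Kcnj9 and Kcna1. They did not share a direction: library 2 was highest for Kcnn1, Kcnmb4os2 and Kcnj9, while Kcng2 and Kcna1 were highest in library 1. The neuron markers Rbfox3, Snap25, Syt1 and Tubb3 summed to 1438, 1258 and 1248 FPKM and were each highest in library 1 as well. The other neuronal lists did not share this. Markers of CA pyramidal and glutamatergic neurons summed to 703, 664 and 746 FPKM, highest in library 3. Inhibitory markers summed to 781, 926 and 752 FPKM and dentate granule markers to 68.4, 69.1 and 65.3 FPKM, both highest in library 2. The part of neuron content in the member levels was not tested. Across the 69 protein-coding members at a mean of at least 1 FPKM, level and longest transcript length had a Spearman rho of -0.083, given as a description of genes that share the same libraries.

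Kcnj13 and Kcne2 are known from the choroid plexus, the epithelium that secretes cerebrospinal fluid beside the hippocampus, and both were lowest in library 1. Kcnj13 was listed at 0 in library 1 and read 2.11 and 0.99 FPKM in libraries 2 and 3, and Kcne2 read 0.98, 2.16 and 2.71 FPKM. All 5 other markers of that epithelium were lowest in library 1 too. The transthyretin gene Ttr read 392, 1071 and 1296 FPKM, Folr1 3.25, 7.08 and 9.16 FPKM and Otx2 0.79, 2.64 and 1.47 FPKM, and the 5 summed to 398, 1084 and 1310 FPKM. The share of choroid plexus RNA in the levels of Kcnj13 and Kcne2 was not tested. Kcnj13 also shares 623 exon bases on the opposite strand with Gigyf2, which read 12.04, 13.3 and 11.3 FPKM.

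**Figure D4:**
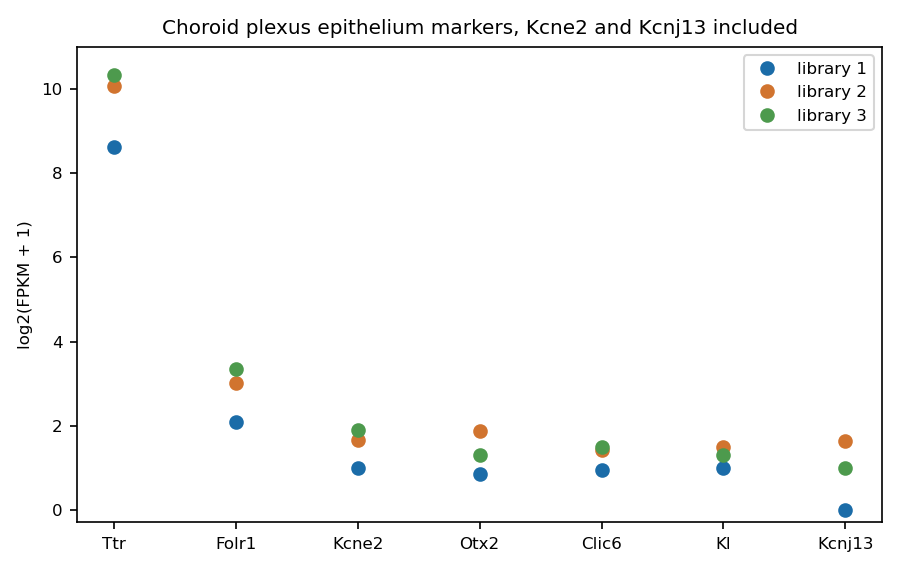
Level of the 7 listed markers of choroid plexus epithelium, as log2(FPKM + 1) on the vertical axis, with 1 point per library. Library 1 is the lowest point for all 7, Kcnj13 (listed at 0 there) and Kcne2 included.

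The bases before the starts of these 2 genes are shown because both are on the choroid plexus list and were lowest in library 1. Their highest libraries differed: library 2 for Kcnj13, as for Otx2 and Kl, and library 3 for Kcne2, as for Ttr, Folr1 and Clic6. Most of these levels were low, and some gaps between libraries 2 and 3 were small, as for Clic6 at 1.70 and 1.82 FPKM. These gaps were not tested, nor was a link between Otx2 and either gene. The hexamer TATAAA, the core of a TATA box, and TAATCC, a core bound by bicoid-class homeodomain proteins such as OTX2, were searched on both strands of the 250 bases before the start. A gene was counted where any of its listed starts had a match. A match of TATAAA is in capitals in the 150 bases shown, from RefSeq on GRCm38.p6, 5′ to 3′ on the strand of the gene. Neither stretch overlaps an exon of its own gene, and exons of other genes were not checked here either.
Kcnj13: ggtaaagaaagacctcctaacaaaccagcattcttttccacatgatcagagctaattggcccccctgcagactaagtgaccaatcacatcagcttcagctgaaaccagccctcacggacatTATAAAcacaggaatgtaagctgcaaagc
Kcne2: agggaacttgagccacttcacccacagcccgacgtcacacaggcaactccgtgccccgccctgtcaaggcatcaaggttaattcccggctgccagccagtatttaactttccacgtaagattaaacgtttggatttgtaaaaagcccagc
The stretch of Kcnj13 is at chr1:87394730-87394879 on the minus strand, with the first base of TATAAA 29 bases upstream of the start. That of Kcne2 is at chr16:92292239-92292388 on the plus strand and has neither hexamer. Kcne2 has 2 listed starts, and only the stretch before the first is shown. Neither hexamer was found in the 250 bases before either start. TATAAA was found for 3 of the 73 members with a sequence (Kcnj13, Kcnj16 and Kcnj9), 4.11%, beside 12.3% of all 19506 genes. TAATCC was found for 2 members (Kcnj9 and Kcnrg), 2.74%, beside 7.0% of all genes.

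Levels of neighbouring members are given without a test. Kcnj9 at a mean of 9.47 FPKM and Kcnj10 at 38.4 FPKM lie 11.9 kb apart, and Kcnj16 at 9.73 FPKM and Kcnj2 at 1.51 FPKM 38.2 kb apart on chromosome 11. On chromosome 3, Kcna3, Kcna2 and Kcna10 follow each other with means of 1.88, 5.21 and 0 FPKM, and on chromosome 6 Kcna1 at 6.67 FPKM precedes Kcna6 at 12.3 FPKM. Kcne2 at 1.95 FPKM and Kcne1 at 0.0267 FPKM face each other on chromosome 16, 47.9 kb apart. Kcnj5 and Kcnj1 on chromosome 9, and Kcnk5 and Kcnk16 on chromosome 14, were all under the filter.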

How the data were processed

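Hippocampus RNA of 3 libraries was sequenced on a NovaSeq instrument, per the labels' protocols. The values are FPKM in 1 table that the authors deposited, with a column for each library, per the file headers. Bowtie2 and the build GRCm38 (mm10) are named in the submitters' processing notes. Bowtie2 does not align reads across splice junctions, and whether reads were mapped to the genome or to transcripts is not given in those notes, so the effect on levels compared between genes is unknown. Which program counted reads, with which annotation and whether by strand, is not given in the sources used here. The treatment of reads that gene copies share is also unstated, so overlapping genes and close paralogs are uncertain. Since 0 may also stand for an estimate that failed, such genes are described as listed at 0.

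FPKM were used as deposited. Genes with a mean of at least 1 FPKM were tested on log2(FPKM + 1), on which low genes differ by less than their FPKM ratio, with the treat function of limma 3.58.1 in R 4.3.3. The null was a difference of at most 1 log2 unit, two-sided, with Benjamini-Hochberg adjustment over all genes tested. The fit was tested on simulated data. Each pair had its own fit. Some genes, with the pairs and subfamily shares that need them, are not reported here but stayed in the fits and in the counts over all members. Transcript lengths and exon overlaps come from GENCODE, coordinates and upstream sequence from RefSeq, all on GRCm38, and all 101 members were found in both gene tables. Coordinates are 1-based.

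Depth was estimated by searching, over genes whose only annotated transcript has 800 bases or more, for the step size and length offset that turn low values into whole fragments. Among values of at most 4 fragments, 92.8%, 92.2% and 90.6% then lay within 0.15 of a whole number in libraries 1, 2 and 3. Settings were chosen on the same values, and in library 1 a clearly higher depth fitted almost as well, so the depths are rough.

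The genes named were those of the pairs, the 3 highest members of each subfamily, the 10 highest and 5 most variable members, those beside the filter, members among the cell type markers, and partners that were highest or at 0. Other members are given so that all are accounted for, and other partners and markers were chosen after their values were seen. The members, pairs and lists were chosen with earlier results of these data known. Alternatives were pseudocounts of 0.1 and 0.5, no filter, a filter at 5 FPKM, a null of no difference, rescaling to TPM, another reference, shares of filtered members and leaving out each library. Python 3.11.15 with numpy 2.4.6, pandas 2.3.3 and matplotlib 3.10.9 was used.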

Additional observations from a re-analysis of the deposited data

How the results depend on the processing

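The number of members called higher than the library median was 9 and the number called lower 23. With no filter these were 21 and 22 (22.6% and 23.7% of members tested, beside 31.3% and 31.7% of all genes), so that the excess of lower calls among members reversed. With a filter at 5 FPKM they were 4 and 9 (9.52% and 21.4%, beside 23.8% and 11.9%). With a null of no difference they were 20 and 40 (27.8% and 55.6%, beside 43.2% and 43.0%), and against the upper quartile 2 and 47 (2.78% and 65.3%, beside 11.1% and 51.7%). They were 6 to 9 and 21 to 23 when 1 library was left out. Of the members tested these were 8.33% to 12.5% and 29.2% to 31.9%, beside 24.34% to 24.89% and 20.03% to 20.86% of all genes. Partners called higher fell from 16 to 10 with a filter at 5 FPKM and to 6 against the upper quartile, beside 23.8% and 11.1% of all genes. The partners called lower numbered 5 with no filter, 6 with a null of no difference and 6 against the upper quartile. Of all genes, 31.7%, 43.0% and 51.7% were called lower there. With no filter or a filter at 5 FPKM, the partners tested were no longer the same 29. These settings move the reference or the null by construction. Of the pairs, Kcnc1 was 0.0056 log2 units above Kcnc2 without library 1, and leaving out 1 library gave a range from -0.082 to 0.0056. Against a null of no difference Kcnd2 and Kcnd3 (0.86 log2 units, adjusted p = 0.000673), Kcnj3 and Kcnj6 (1.08, 2.37e-05) and Kcnk1 and Kcnk2 (1.10, 4.93e-05) were called. The other 59 pair values and 36 share values kept their side or stayed within 1 SD.

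Among single genes, 31 differences to the reference changed sign, none of a gene called in the report. With no filter these were, in log2 units, Kcna1 0.45, Kcna2 0.17, Kcnc1 0.91, Kcnc2 0.95, Kcnd3 0.56, Kcng1 0.57, Kcnj16 0.95, Kcnj6 0.12, Kcnj9 0.90, Kcnma1 0.93, Kcnmb4os2 0.92, Kcnn1 0.79, Kcnq5 0.83 and Kcnv1 0.70. With a filter at 5 FPKM they were Kcna6 -0.57, Kcnd2 -0.40, Kcnj3 -0.62, Kcnk4 -0.13 and Kcnq3 -0.61. Against the upper quartile they were Kcna6 -1.14, Kcnd2 -0.97, Kcng2 -0.26, Kcnh3 -0.19, Kcnj3 -1.20, Kcnj4 -0.35, Kcnk2 -0.26, Kcnk4 -0.71 and Kcnq3 -1.19. Leaving out 1 library gave -0.30 to 0.0061 for Kcnj9 and -0.60 to 0.083 for Kcnn1, both highest without library 3, and -0.40 to 0.20 for Kcnmb4os2, highest without library 1. No paired analysis was possible because there is 1 group. Depth limits the members under about 0.4 FPKM to a few fragments.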
